A study of Rattus norvegicus with 241 samples.

Results

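The integrins and laminins of the rat were followed through the bulk and single-cell RNA-seq tables. Members were all genes whose symbol names an integrin alpha chain, an integrin beta chain or a laminin alpha, beta or gamma chain, whatever their levels. This gave 37 of 21707 genes, made up of 18 alpha integrins, 8 beta integrins and 11 laminin chains. Of these, 30 were in bulk data among 16820 genes and 34 in single-cell data among 18566 genes, with 27 in both. LAMA2, ITGAX, ITGA2, ITGAV, LAMB1, ITGA9 and ITGA2B were listed only in the single-cell tables, and ITGAM, ITGB5 and LAMA3 only in bulk tables, while in bulk ITGA3 and LAMA3 were listed only in the adult and estradiol experiments.

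The study set female rats given TGFBRi, the TGFβ receptor kinase inhibitor LY2157299, beside rats given vehicle, in 202 bulk samples and 39 single-cell libraries. All TGFBRi-treated rats received 75 mg/kg at each of 2 doses a day, for 10 days except where stated. Young virgin ACI rats were first dosed at 35 days of age and sampled on day 0, 7 or 14 after the last dose, with 3 rats per treatment and day. Young virgin SD rats were first dosed at 24 days and sampled on day 0, with 4 rats per treatment. Adult virgin and parous ACI rats started at 18 to 24 weeks and were sampled on day 0 (basal and luminal cells of 4 rats per group, CD45+ cells of 2 to 4). In the NMU experiment SD rats were first dosed at 21 days, all received 50 mg/kg of the carcinogen NMU, and normal glands were taken on day 87 from 3 tumor-bearing vehicle, 3 tumor-bearing TGFBRi and 3 tumor-free TGFBRi rats, with EPCAM+ and CD45+ cells of tumors from 3 rats per treatment. In the estradiol experiment virgin ACI rats started at 38 days of age and received 21 days of dosing, and those with E2 carried a 37 mg estradiol implant. That experiment had 4 vehicle and 3 TGFBRi rats without E2, 4 tumor-bearing vehicle rats with E2, and 4 tumor-free and 2 tumor-bearing TGFBRi rats with E2. Single cells on day 0 came from sorted basal and luminal cells of 3 vehicle and 3 TGFBRi ACI rats and of 3 vehicle and 6 TGFBRi SD rats, and from whole glands of 3 vehicle and 6 TGFBRi SD rats, all virgin and young.

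Integrins are transmembrane receptors made of an alpha and a beta chain that tie the cytoskeleton to the matrix or to other cells. Laminins are trimers of an alpha, a beta and a gamma chain and are the main adhesive protein of basement membranes. In the mammary gland the basal, myoepithelial layer rests directly on that membrane and holds it through the ITGA6 and ITGB4 pair, the laminin receptor of hemidesmosomes, and through ITGB1 pairs such as that with ITGA3. ITGB6 and ITGB8 pair with ITGAV and bind latent TGFβ, releasing it in active form. Leukocytes carry their own set: ITGB2 pairs with ITGAL, ITGAM, ITGAX or ITGAD, and ITGB7 with ITGA4 or ITGAE. ITGB1 is CD29, and basal and luminal cells were sorted as CD29 high and CD29 low, so that its difference between those fractions is set by the gate and is no finding.

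The stretches of 250 bases before the start of 4 members are shown because these members had the widest differences between basal and luminal cells of ACI rats below. In SD rats ITGA11 stood further apart than LAMC1. They come from RefSeq on GRCr8, whose coordinates are not those of the deposited files, which hold no coordinates. LAMA1 lies on the plus strand at chr9:115139298-115139547, LAMC1 on the minus strand at chr13:68051987-68052236, ITGB6 on the minus strand at chr3:65530334-65530583 and ITGA1 on the minus strand at chr2:48545284-48545533. Capitals mark CAGAC, the SMAD motif, or GGAATG, the TEAD motif, on either strand.
LAMA1: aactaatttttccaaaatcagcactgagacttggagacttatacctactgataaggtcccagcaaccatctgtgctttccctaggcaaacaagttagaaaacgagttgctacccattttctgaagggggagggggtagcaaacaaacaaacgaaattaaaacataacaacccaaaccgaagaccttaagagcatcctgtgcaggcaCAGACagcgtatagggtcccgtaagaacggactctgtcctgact
LAMC1: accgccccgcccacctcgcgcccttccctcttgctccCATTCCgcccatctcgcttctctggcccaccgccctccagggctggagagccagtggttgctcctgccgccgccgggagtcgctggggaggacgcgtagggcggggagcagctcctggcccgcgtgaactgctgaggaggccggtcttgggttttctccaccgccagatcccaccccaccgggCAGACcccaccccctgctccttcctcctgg
ITGB6: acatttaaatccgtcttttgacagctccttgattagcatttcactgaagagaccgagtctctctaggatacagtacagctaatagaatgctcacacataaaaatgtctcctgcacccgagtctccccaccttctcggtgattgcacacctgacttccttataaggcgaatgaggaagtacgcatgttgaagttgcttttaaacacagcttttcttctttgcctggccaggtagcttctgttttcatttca
ITGA1: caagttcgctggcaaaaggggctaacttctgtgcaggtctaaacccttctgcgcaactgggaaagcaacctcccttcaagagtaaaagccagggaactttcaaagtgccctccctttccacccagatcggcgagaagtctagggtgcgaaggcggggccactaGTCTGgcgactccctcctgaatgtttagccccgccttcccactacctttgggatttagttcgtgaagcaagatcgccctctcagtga
CAGAC began 44 bases before the start in LAMA1, 30 in LAMC1 and 87 in ITGA1, and GGAATG 213 bases before it in LAMC1, while ITGB6 held neither. Promoters were found for 28 of the members. CAGAC stood in 19 of these 28 and in 42.9% of 33469 promoters of the same length, GGAATG in 5 and in 12.1%, and the AP-1 motif TGANTCA in 2 and in 6.34%, with both strands searched. No marked motifs overlapped, and these matches are a description of the sequence only.

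Bulk libraries held 4194912 to 52314784 reads on genes, and p-values measured the spread between rats. The basal vehicle libraries of rats LD2LR (day 7) and LD11L (day 14) stood below the other basal vehicle ACI libraries for LAMA1, LAMC1 and ITGB4. LD2LR was taken as vehicle from its titles although its basal and luminal descriptions say treated, and a CD45+ library of LD9R titled day 9 was taken as day 7. SD rats labelled weak or strong responders were not split. In single cells, median UMIs per cell in a library ran from 4251 to 15941 in sorted ACI, 4365.5 to 14448 in sorted SD and 2820 to 3885 in whole glands. Sorted libraries shared at most 5 barcodes, whole-gland libraries up to 284 and at most 2.51% of the smaller library. Classes of cells were named from markers after clustering without the members, and an unnamed sorted SD cluster of 3428 cells led by the stress gene HMOX1 came to 98.5% from the rat SD14.

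LAMA1, LAMC1, ITGA1 and ITGB6 were higher in basal than in luminal cells of both strains, without overlap between samples. Basal and luminal samples of 9 vehicle ACI rats and 4 vehicle SD rats were compared by limma on log2 of the normalized read count plus 1, which is the scale of every bulk difference here. In ACI rats 13 of 28 members tested were higher in basal cells and none lower, against 19.1% of all genes higher. In SD rats 18 of 27 were higher and none lower, against 26.9% of all genes. These counts hold ITGB1, by which the cells were sorted, and without it 12 of 27 and 17 of 26 were higher. With the rat as a block, since both fractions came from the same rats, 14 were higher and 2 lower in ACI and 19 higher and 1 lower in SD rats. The members that gained a call with the block were ITGB5 (adjusted p = 0.011), higher, and ITGA8 (0.0103) and ITGB3 (0.0496), lower, in ACI rats, and ITGB4 (0.026), higher, and ITGAE (0.0204), lower, in SD rats. Without the block ITGA8 in ACI rats differed by -0.97 (SE 0.41, adjusted p = 0.071). Bulk samples cannot tell fewer cells of a type from less RNA per cell.

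LAMA1, the alpha chain of the first laminin of the embryo, had lowest, median and highest normalized read counts of 489.7, 3744 and 7678 in ACI basal cells against 0, 1.51 and 9.40 in luminal cells, a difference of 10.03 (SE 0.69, adjusted p = 8.8e-13). In SD rats the 4 basal samples held 705, 600.1, 1150.1 and 859 and the luminal samples 18.3, 5.36, 2.78 and 0, a difference of 7.44 (SE 0.72, adjusted p = 2.9e-07). All basal samples of both strains lay above all luminal ones. LAMC1, the gamma chain shared by most laminins, stood at 5349.7, 19314 and 25218 in ACI basal cells and 369.7, 1402 and 2008 in luminal cells, a difference of 3.61 (SE 0.38, adjusted p = 6.0e-09). The SD basal samples held 8726, 8107, 10254 and 10109 and the luminal samples 359.6, 654, 538 and 496, a difference of 4.21 (SE 0.35, adjusted p = 5.0e-08). Here too the lineages did not overlap. LAMB3, the beta chain of the laminin of hemidesmosomes, differed by 3.04 (SE 0.48, adjusted p = 6.8e-06) in ACI rats and by 3.06 in SD rats. LAMA5, a widely expressed laminin alpha chain of adult tissues, was higher by 2.01 in ACI and 2.31 in SD basal cells. LAMA4 and LAMC3 were called in SD rats only, at 2.30 (SE 0.34, adjusted p = 3.1e-05) and 3.62 (SE 0.98, adjusted p = 0.0049), and their ACI differences were -0.04 and 1.75, though strains were not tested against each other. Sorted SD single cells of vehicle rats, on the UMI scale given below, did not show LAMA4 highest in basal-like cells. It was 0.0678 to 0.0911 there, 0.327 to 0.482 in luminal progenitor-like and 0.0214 to 0.0326 in mature luminal-like cells. LAMB2, a beta chain of vessels and muscle, was called in neither strain and overlapped in both, at -0.56 and 0.24. Markers of stroma moved with the lineage in SD rats. The summed normalized reads of 7 fibroblast markers ran from 371021 to 594202 in SD basal and 5001 to 19784 in SD luminal samples, where 9 basal epithelial markers summed to 145097 to 187677 and 4647 to 68964, and in ACI rats the fibroblast sums ran from 15480 to 127485 and 5233 to 35772, with overlap. Those of 7 vascular smooth muscle markers ran from 108638 to 151390 in SD basal and 1358 to 19562 in SD luminal samples. Their part in the differences of laminins, integrins and ligands between the lineages was not tested.

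Among integrins, ITGA1, a collagen and laminin receptor of contractile cells, had lowest, median and highest counts of 151, 1226 and 3381 in ACI basal and 2.92, 11.2 and 42.2 in luminal cells, a difference of 6.16 (SE 0.45, adjusted p = 4.3e-12). ITGB6, the epithelial receptor for latent TGFβ, stood at 1353, 3715 and 5422 in basal and 55.5, 105.5 and 229.5 in luminal cells, a difference of 4.84 (SE 0.23, adjusted p = 4.9e-16). In SD rats ITGB6 was 2103, 2042, 2368 and 3552 in basal and 25.1, 181, 149.8 and 215 in luminal samples, a difference of 4.46 (SE 0.51, adjusted p = 1.8e-06). LAMA1, LAMC1, ITGA1 and ITGB6 were the called ACI members without overlap between the lineages. ITGA6 was higher by 1.74 (SE 0.45, adjusted p = 0.0026) in ACI and by 3.46 (SE 0.30, adjusted p = 7.7e-08) in SD basal cells, and its 4 SD basal samples held 7761, 7047, 7254 and 7591 against 386, 794, 606 and 1089 in luminal samples. Its hemidesmosome partner ITGB4 differed by 0.61 (SE 0.56, adjusted p = 0.48) in ACI and 0.92 (SE 0.39, adjusted p = 0.06) in SD rats, and with the rat as a block it was higher in SD basal cells (adjusted p = 0.026) but not called in ACI (adjusted p = 0.15). The other members called in both strains were ITGA11, a collagen receptor (2.82 in ACI and 4.46 in SD), ITGA7, a muscle laminin receptor (2.08 and 3.49), the fibronectin receptor ITGA5 (1.32 and 1.77) and ITGB2 (1.94 and 4.05), beside the gated ITGB1. Basal-like cells among sorted single cells of vehicle rats, on the UMI scale given below, held little ITGA7 or ITGA11. ITGA7 was 0.0019 to 0.0057 in ACI and 0.0061 to 0.0096 in SD rats, overlapping mature luminal-like cells in both. ITGA11 was 0.0067 to 0.0093 and 0.0024 to 0.0115, against 0 in luminal classes. In vehicle rat SD2, vascular smooth muscle-like cells held 1.85 of ITGA7 and fibroblast-like cells 0.963 of ITGA11. The leukocyte integrin ITGB2 stood at a median of 27.2 normalized reads in ACI basal and 9.85 in luminal cells, overlapped between them, and missed the threshold by edgeR in ACI rats (adjusted p = 0.088). ITGA4 (3.42), ITGAL (2.28) and ITGA8 (0.73) were called without the block in SD rats only. In sorted SD single cells of vehicle rats ITGA8 was 0.373 to 0.614 in basal-like cells on the same UMI scale. It was higher in luminal progenitor-like cells (1.17 to 2.01) and lower in mature luminal-like cells (0.0214 to 0.0281). With the samples scaled by TMM, ITGA5 in ACI rats missed the threshold, at an adjusted p of 0.067. ITGB5, ITGB8 and ITGB3 were called in neither strain without the block.

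**Figure D1:**
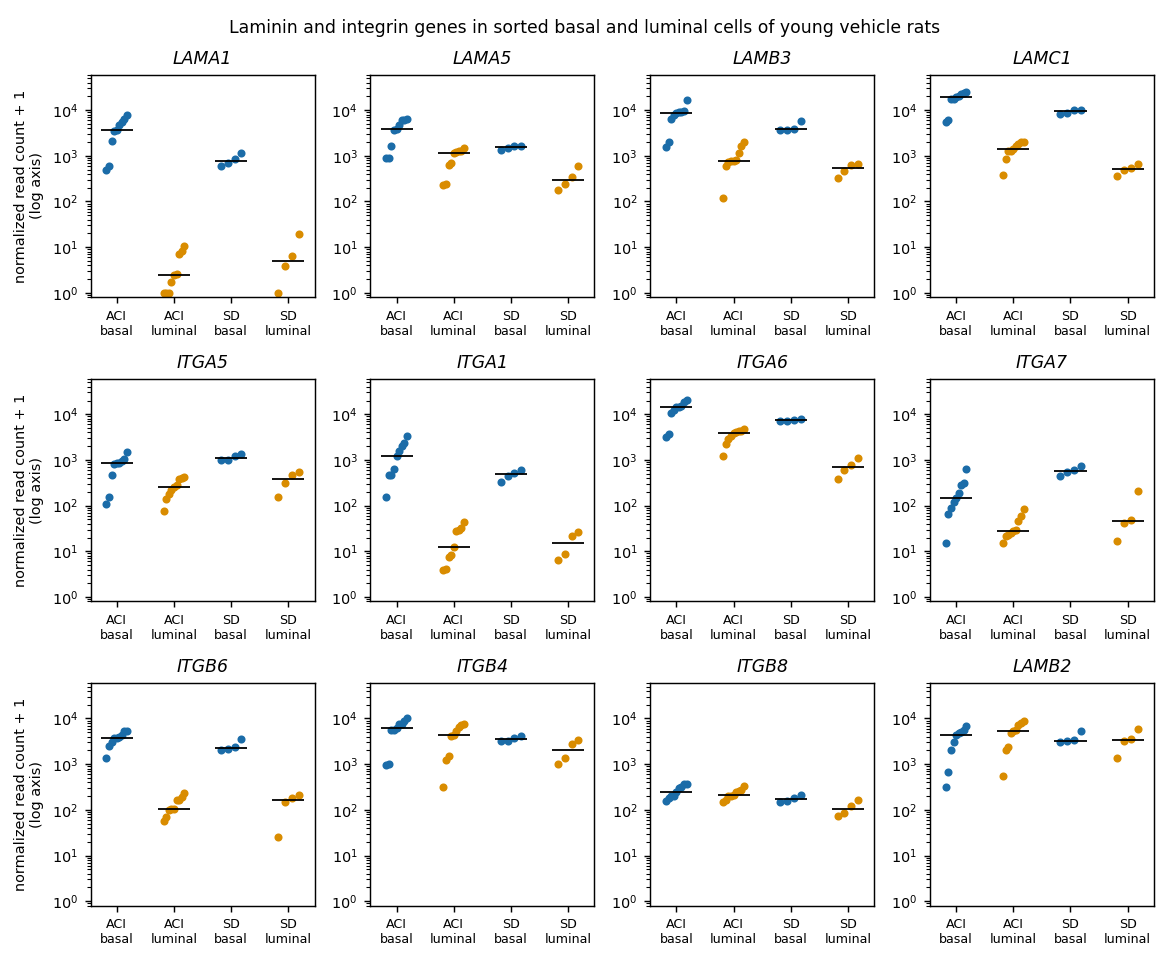
Normalized read count plus 1 (log axis) of 12 members in basal and luminal cells of vehicle ACI rats (9 per lineage) and vehicle SD rats (4 per lineage). Each point is 1 sample and the line is the median. Points of LAMA1, LAMC1, ITGA1 and ITGB6 do not overlap between lineages, whereas those of LAMB2 and ITGB8 do in ACI rats.

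Genes that work with the members were read from lists of 17 intracellular adaptors, 4 hemidesmosome genes, 5 basement membrane partners and 9 other integrin ligands. Adaptors were higher in basal cells for 10 of 16 tested in ACI and 10 of 15 in SD rats, with none lower and a median difference of 0.90 in ACI and 1.49 in SD, where the median of all genes was 0.14 and 0.13. FERMT1, which activates integrins in epithelium, was higher by 8.47 and 4.15, LIMS2 by 4.28 and 1.68 and the talin partner VCL by 2.21 and 2.99. COL17A1, the hemidesmosome collagen, was higher by 9.93 and 8.49 and was the called gene of the 2 hemidesmosome genes tested. Of 3 basement membrane partners, NID2 and DAG1 were called in both strains (NID2 2.49 in ACI and 6.21 in SD) and AGRN in SD rats. Of 8 other ligands, 5 were higher in ACI and 3 in SD rats, among them fibronectin FN1 (2.28 and 4.31), tenascin TNC (2.77 and 4.19) and VCAM1 (2.53 and 3.64), in the samples where the fibroblast markers were also higher in SD basal cells.

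Leukocyte integrins marked the CD45+ fraction, given here without a test in vehicle rats as RPM, the reads of a gene scaled to the same total of reads on genes in every library. ITGB2 had a lowest, median and highest level of 368, 543 and 1490.2 RPM in CD45+ cells of 9 ACI rats, and medians of 1.87 in basal and 0.807 in luminal cells. ITGB7 stood at 187, 236 and 499 and ITGAL at 65.3, 104.3 and 247 in the same CD45+ samples. In 4 SD rats the CD45+ medians were 304 for ITGB2, 338 for ITGB7 and 61.4 for ITGAL. For these 3 genes every CD45+ sample lay above every basal and luminal sample of its strain. ITGA4 (ACI CD45+ median 43.3) and ITGAM, the alpha chain of the complement receptor of myeloid cells (38.8), followed the same order, with epithelial medians of at most 4.59. ITGAD ran from 0.619 to 18.7. The epithelial laminin receptor ran the other way in ACI rats: ITGA6 had a median of 932 in basal, 253 in luminal and 59.3 in CD45+ cells. In SD rats its normalized reads overlapped between luminal (386 to 1089) and CD45+ samples (390 to 841), below basal samples (7047 to 7761).

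Whole SD glands placed 34 members in 14 classes of cells. The 6356 unnamed cells and 2409 luminal-like cells not split into progenitor or mature were left out of these classes. Levels are UMIs per 10000 UMIs of a class in a rat, given as the mean of 3 vehicle rats with the lowest and highest rat, and comparisons between classes are a description without a test. Sorted and whole-gland libraries were made with kits that read opposite ends of transcripts, so a level in one cannot be set against that in the other. Basal-like cells held the highest level of LAMB3 at 0.909 (0.732 to 1.01), LAMA1 at 0.114 (0.0789 to 0.179), ITGA6 at 3.15 (3.08 to 3.29), ITGA3 at 1.93 (1.75 to 2.22), ITGB6 at 1.20 (0.86 to 1.75) and the collagen receptor ITGA2 at 0.426 (0.272 to 0.601). For LAMB3, LAMA1, ITGA6, ITGA3 and ITGA2 the range lay above that of the next class, while ITGB6 overlapped mature luminal-like cells at 0.571 (0.38 to 0.94). Sorted ACI cells gave the same class the highest ITGB6 at 2.94 (2.72 to 3.06) and LAMA1 at 2.48 (2.03 to 3.19). There, luminal progenitor-like cells were highest for ITGA8, the nephronectin receptor, at 1.46 (1.41 to 1.52) and for LAMA4 at 0.379 (0.361 to 0.395), and mature luminal-like cells for LAMB2 at 0.964 (0.929 to 1.00).

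Stromal classes divided the remaining laminins. LAMA2, the alpha chain of muscle and nerve laminin, was highest in fibroblast-like cells at 2.20 (1.98 to 2.44), overlapping Schwann-like cells at 1.75 (1.51 to 2.20). Schwann-like cells, the glia that wrap nerves, were highest for LAMB1 at 2.35 (1.79 to 2.65) and LAMC1 at 2.87 (2.73 to 3.06), both overlapping fibroblast-like cells, and for ITGB4 at 4.24 (3.70 to 5.31) and ITGB8 at 0.756 (0.579 to 0.921), above the range of the next class. Vascular smooth muscle-like cells led for LAMB2 at 5.65 (4.93 to 6.38), LAMA5 at 2.97 (2.27 to 3.69), ITGA7 at 1.84 (1.55 to 2.18) and ITGB1 at 12.2 (9.27 to 13.8). Of these, LAMB2 alone did not overlap the next class. Pericyte-like cells led for ITGA1 at 1.59 (1.48 to 1.80), ITGA8 at 0.781 (0.176 to 1.54), LAMC3 at 0.115 (0.0654 to 0.176) and ITGA10 at 0.0131 (0.0077 to 0.0188), all overlapping another class. Lymphatic endothelium-like cells led for ITGA5 at 2.28 (2.02 to 2.60), ITGA9, a tenascin receptor, at 0.344 (0.255 to 0.442) and the platelet integrin ITGA2B at 0.157 (0.112 to 0.228), all above the next class, and for LAMA4 at 1.92 (1.55 to 2.28) and ITGAV at 0.506 (0.392 to 0.648), which overlapped it. ITGA11 at 0.353 (0.224 to 0.551) was a fibroblast-like gene, and the next class held 0.00642 (0 to 0.0192).

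Among leukocytes, neutrophil-like cells, a cluster led by S100A9 and IL1B, held the highest ITGB2 at 11.2 (9.15 to 14.0), with NK-like cells next at 1.82 (1.57 to 2.19). The marker lists held none for monocytes, and the authors named monocyte-macrophages but no neutrophils in whole glands. The name of this class therefore does not tell neutrophils from monocytes. ITGAL at 4.61 (4.25 to 5.27), ITGA4 at 3.13 (2.47 to 3.84) and ITGB3 at 0.678 (0.551 to 0.905) were also highest in neutrophil-like cells, above the range of the next class. ITGAX at 0.827 (0.664 to 1.07) and ITGAD at 0.969 (0.675 to 1.12) overlapped macrophage-like cells, and ITGB7 at 0.395 (0.322 to 0.476) overlapped T cell-like cells at 0.335 (0.239 to 0.461). ITGAE, the E-cadherin receptor of resident lymphocytes, was highest in NK-like cells at 0.191 (0.158 to 0.234) and overlapped Schwann-like cells.

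**Figure D2:**
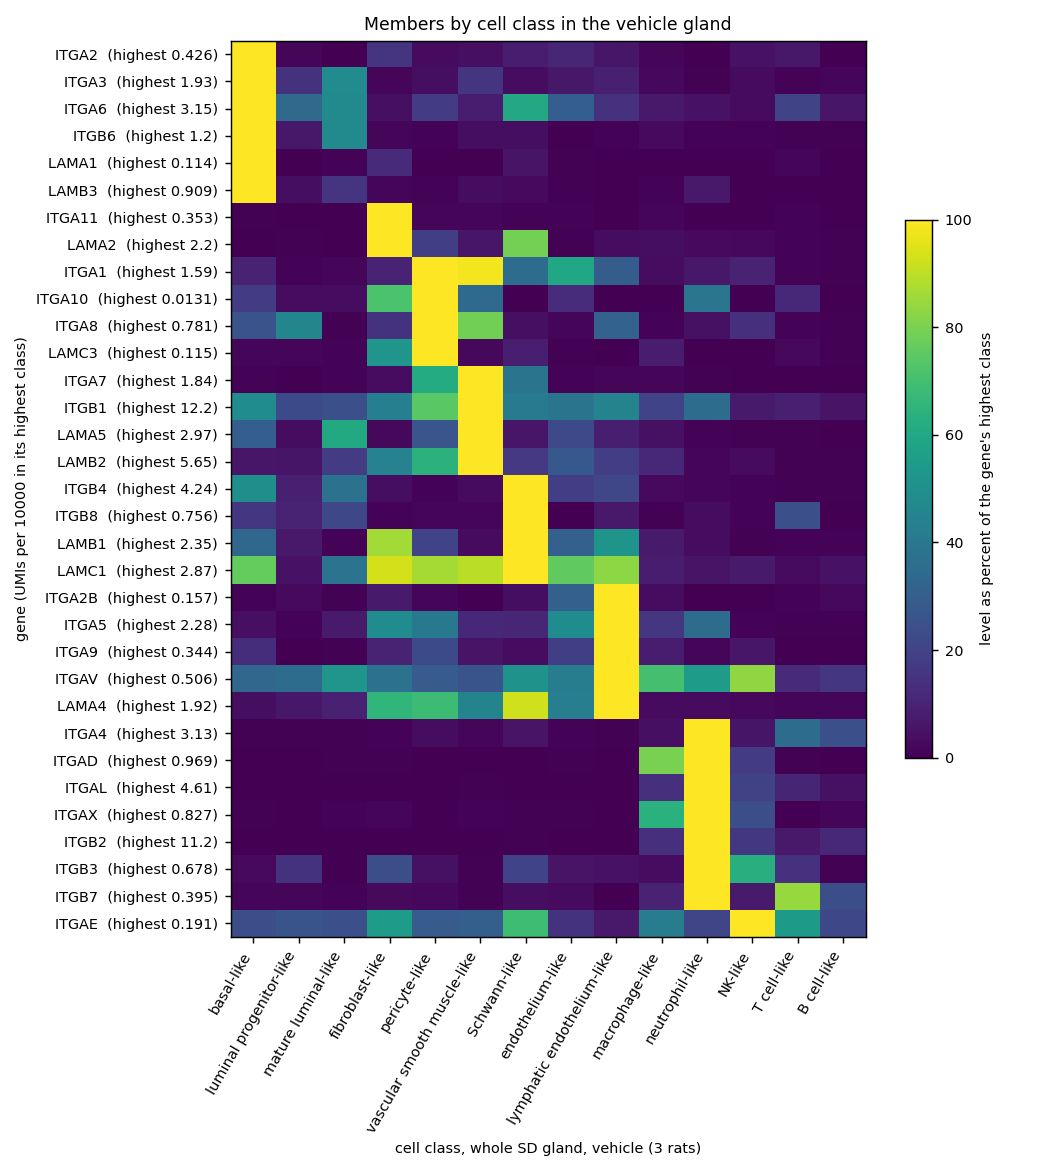
Heat map of 33 members in 14 classes of cells from whole glands of 3 vehicle SD rats, each level given as a percentage of the gene's highest class. LAMB3 and LAMA1 sit in basal-like cells, ITGB4 and ITGB8 in Schwann-like cells, and ITGB2, ITGAL and ITGA4 in neutrophil-like cells.

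Of 28 members tested in CD45+ cells of young ACI rats on day 0, 7 were called after TGFBRi, all lower and 6 of them laminin chains. Of all genes 2.85% were called and 2.01% were lower. LAMC3 held 0, 0 and 17.7 normalized reads in 3 TGFBRi rats and 221, 408 and 169 in 3 vehicle rats, a difference of -6.55 (SE 1.09, adjusted p = 0.0053). LAMA1 held 0, 0 and 1.10 against 19.7, 223 and 95.4, a difference of -5.90 (SE 0.95, adjusted p = 0.0043). LAMC1 held 478, 1208 and 553 against 2326, 2505 and 3534, a difference of -2.0 (SE 0.51, adjusted p = 0.047). Every TGFBRi sample lay below every vehicle sample for these genes. LAMB3 at -2.08 (SE 0.52, adjusted p = 0.043), LAMB2 at -1.72 (SE 0.40, adjusted p = 0.034) and ITGA7 at -3.19 (SE 0.80, adjusted p = 0.043) were lower too. LAMC1 missed the threshold with TMM scaling, at an adjusted p of 0.054. By edgeR 3 members were called, and in a fit of the compared groups alone 0. Leaving out 1 library gave 2 to 11 members and 78 to 1043 of all genes. Of the members 2 were called without LD10R or LD3R, 3 without LD7R, 4 without LD9L, LD11L, LD11R, LD12R or LD2L, and 11 without LD3L.

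Laminins are made by epithelium and stroma, and markers of those cells moved with these values in the CD45+ samples. The summed normalized reads of 9 basal epithelial markers ran from 156 to 452 in TGFBRi and 4419.5 to 14640.0 in vehicle samples, with TP63 at 0 in all TGFBRi samples. Those of 8 fibroblast markers ran from 23913 to 150469.9 and 369088 to 741401, with COL1A2 at 0 in all TGFBRi samples, and those of 9 endothelial markers from 3644 to 4379 and 7704 to 15407. The 4 leukocyte markers summed to 101471 to 125093 and 102559.8 to 162642. Their part in the laminin difference was not tested. The treatment effect was not shown to differ between day 0 and day 14 in CD45+ cells, where limma called 0 of 28 members (smallest adjusted p = 0.055) against 0.19% of all genes, edgeR 0 against 0.163% and DESeq2 8 against 5.58%. At an unadjusted p under 0.05 limma had 15 of the 28 members and 15.9% of all genes. Of the partner lists only VTN, the ligand vitronectin, was called, at -3.02.

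**Figure D3:**
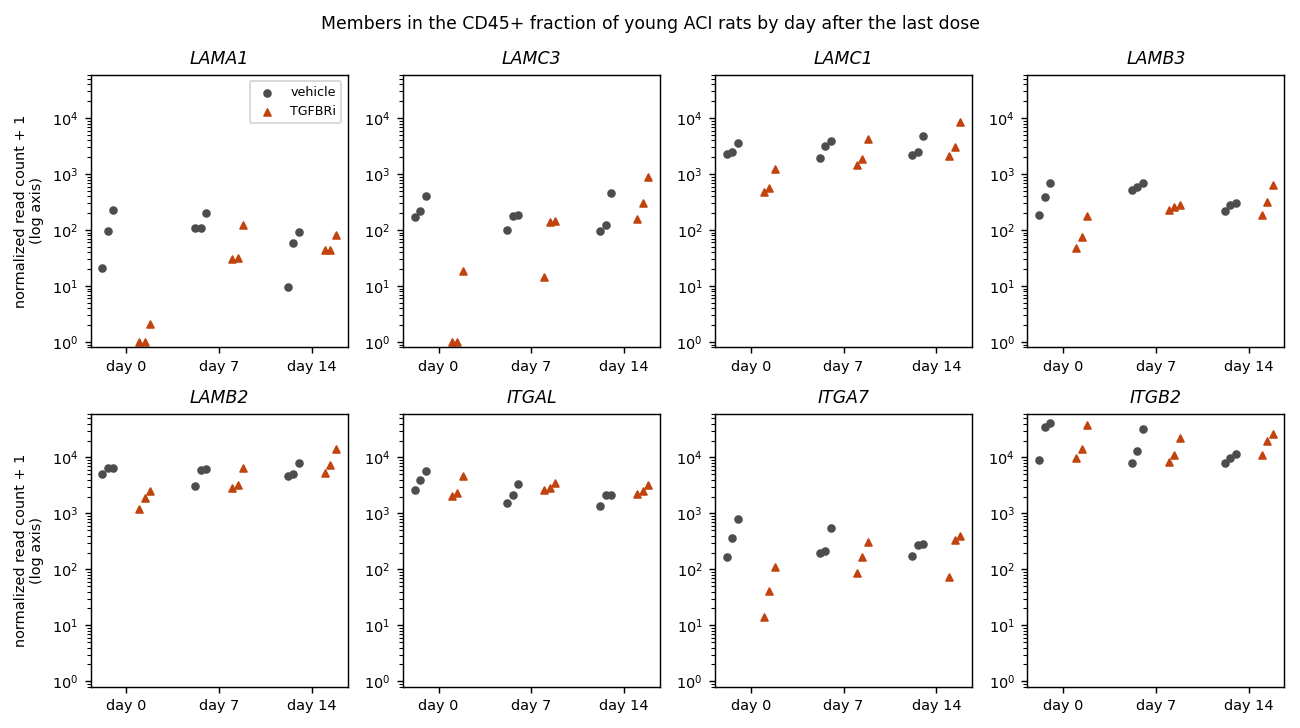
Normalized read count plus 1 (log axis) of 8 members in CD45+ cells of young ACI rats on days 0, 7 and 14 after the last dose, with 3 vehicle and 3 TGFBRi rats per day and 1 point per rat. On day 0 the TGFBRi points of LAMA1, LAMC3 and LAMC1 lie below all vehicle points, while those of ITGB2 overlap.

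In basal cells of young ACI rats on day 0, 1 of 28 members was called, against 3.34% of all genes. ITGAM was 24.3, 46.3 and 121 in TGFBRi and 0, 0.82 and 16.2 in vehicle samples, higher by 4.07 (SE 0.99, adjusted p = 0.04), but not by edgeR (adjusted p = 0.22) and in 9 of 18 fits that left out 1 sample. The adaptor FERMT3, which serves leukocyte integrins, was higher by 3.73. Leukocyte markers moved alongside: 4 general ones summed to 431 to 1046 and 84.8 to 381, 8 macrophage ones to 605 to 1523 and 161 to 252 and 5 B cell ones to 137 to 320.2 and 3.26 to 32.6 in TGFBRi and vehicle samples. Basal markers summed to 101586 to 199759 and 236305 to 295990.3. Their part was not tested. The TGFβ-binding ITGB8 was 497, 797 and 654 in TGFBRi and 179, 312 and 251 in vehicle samples, without overlap, yet did not pass after adjustment. Basal-like single cells of sorted ACI rats on day 0 went the other way for ITGB8, also without overlap. On the UMI scale given above it stood there at 0.277, 0.333 and 0.319 in TGFBRi and 0.394, 0.426 and 0.424 in vehicle rats. ITGB8 was not among the members called in those cells. In luminal cells limma called 0 of 28 members, against 1.01% of genes, edgeR 0 against 0.0198% and DESeq2 2 against 3.75%. At an unadjusted p under 0.05 stood 8 of the 28 and 19.8% of all genes. Leaving out 1 library gave 0 to 5 members and 0 to 2358 of all genes, with 5 members called without LD10R.

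In basal cells of adult virgin ACI rats 8 of 29 members were lower after TGFBRi and none higher, against 8.73% of genes called and 6.23% lower, with a median over all genes of -0.25. LAMC1 held 5828, 4917, 4037 and 6229.9 in 4 TGFBRi rats and 11004, 16372, 18518 and 15027 in 4 vehicle rats, a difference of -1.53 (SE 0.24, adjusted p = 0.0017). ITGB4 held 6905, 5597, 4019.9 and 3667 against 10943, 18032, 20621 and 15377, a difference of -1.69 (SE 0.29, adjusted p = 0.0032). LAMA3, the alpha chain of the hemidesmosome laminin, held 3644, 2776, 3369.9 and 1143 against 4273, 6565, 7087 and 5329, a difference of -1.19 (SE 0.29, adjusted p = 0.019). Neither group overlapped the other for these genes. LAMB3 at -1.40 (SE 0.33, adjusted p = 0.017), LAMA4 at -1.95 (SE 0.45, adjusted p = 0.015), ITGA8 at -1.47 (SE 0.33, adjusted p = 0.013) and ITGA6 at -0.80 (SE 0.19, adjusted p = 0.018) were lower as well. ITGA10, the cartilage collagen receptor, was 0, 1.15, 0 and 0 against 25.5, 9.17, 15.3 and 11.1, with an adjusted p of 0.039 at these low counts. Without the vehicle rat N1R 5 members passed and without the vehicle rat N2N 3, and in a fit of the compared groups alone 2. Fits without 1 library called 504 to 1712 of all genes in this comparison.

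Among partners, the receptor DAG1 fell by 2.16 and AGRN by 1.71, fibronectin FN1 by 2.75 and ICAM2 by 5.14, and 4 of 16 adaptors (TLN1, PARVA, PTK2 and TNS1) by 0.90 to 1.86. Of the list of 4 hemidesmosome genes outside the members 0 passed, with COL17A1 at -0.84 (adjusted p = 0.066), CD151 at -0.49 (adjusted p = 0.59), DST at 0.31 (adjusted p = 0.61) and PLEC at -0.04 (adjusted p = 0.93). Basal markers summed to 264863 to 610215 in TGFBRi and 314712 to 640278 in vehicle samples, and endothelial markers to 901 to 4016 and 2864 to 41084. Their part was not tested. LAMC1 also differed between virgin and parous rats in its response, by -1.55 (adjusted p = 0.038). In parous rats it held 10819, 12157, 15769 and 14690.3 after TGFBRi and 17235, 14778, 8342 and 13389 after vehicle, with overlap.

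In luminal cells of the NMU experiment, tumor-free TGFBRi rats were compared with tumor-bearing vehicle rats, so that treatment and tumor cannot be told apart in that comparison. Of 28 members 2 were higher, against 0.948% of genes called. ITGA5 held 937, 1558 and 897 against 220.2, 162 and 337, a difference of 2.25 (SE 0.47, adjusted p = 0.034). LAMB2 held 4143, 5313 and 5002 against 1637, 1282 and 1439.9, a difference of 1.73 (SE 0.41, adjusted p = 0.045). Neither gene overlapped between these groups. The tumor-bearing TGFBRi rats, which share the vehicle samples and their tumor status, held 1203, 375 and 753 of ITGA5, a difference from vehicle of 1.60 (SE 0.47, adjusted p = 0.107), and 1961, 3547 and 4094 of LAMB2, a difference of 1.08 (SE 0.41, adjusted p = 0.187). They too lay above all vehicle samples, though neither difference passed the test. In the tumor-free rats 2 of 15 adaptors, PXN (1.70) and BCAR1 (1.83), were also higher. Fibroblast markers summed to 9484 to 50099 and 5145 to 15704, and their part was not tested. With 1 library left out 0 to 5 members and 0 to 2017 of all genes passed.

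Estradiol was compared with no E2 in vehicle rats, where those with E2 bore tumors. In luminal cells limma called 0 of the members, against 1.48% of genes, edgeR 1 against 0.993% and DESeq2 3 against 4.59%. At an unadjusted p under 0.05 stood 4 of 30 members and 14.5% of all genes. LAMA5 came nearest, at -1.49 (adjusted p = 0.061 by limma and 0.048 by edgeR), with 1368, 1367, 1165 and 1638 with E2 and 8093, 1801, 3873 and 3903 without. The ligands TNC (3.48) and VCAM1 (3.13) and the adaptor FERMT1 (5.93) were higher with E2. In CD45+ cells limma called 0, against 0.282% of genes, edgeR 0 of the members and 0 of all genes, and DESeq2 5 members against 1.86%. At an unadjusted p under 0.05 stood 9 of 30 members and 12.1% of all genes. Leaving out 1 library gave 0 to 1 called in luminal cells (1 without A4-18 or A4-28) and 0 to 2 in CD45+ cells (1 without A4-4 and 2 without A4-8). Over all genes these fits called 89 to 531 in luminal and 4 to 182 in CD45+ cells.

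The other 27 bulk contrasts of TGFBRi gave 774 pairs of member and contrast, of which 1 was called, against 0.0597% of all pairs of gene and contrast. At an unadjusted p under 0.05 stood 8.91% of the member pairs and 6.06% of all pairs. The called pair was ITGB4 in CD45+ cells of tumor-bearing rats with E2, at 0 and 1.03 in 2 TGFBRi rats and 24.6, 51.5, 23.4 and 30.4 in 4 vehicle rats (adjusted p = 0.042 by limma), which edgeR did not call (adjusted p = 0.23) and which 4 of 17 fits without 1 sample kept. Of the list of basal markers, KRT5, KRT14 and OXTR were at 0 in both TGFBRi rats. The rest of that list and the vehicle values are not given here, and the part of these markers was not tested.

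For the single cells, UMI sums of each rat and class were tested with edgeR (TMM scaling), and a call below means an adjusted p of at most 0.1. Standard errors came from DESeq2. In sorted cells of ACI rats 20 of 67 pairs of member and class were called (29.9%), against 29.5% of all pairs, and in sorted SD cells 22 of 73 (30.1%) against 32.9%. With all rats in the fit the members were called about as often as other genes. Leaving out 1 rat gave 12 to 16 pairs in ACI (12 without ACI15 or ACI7) and 5 to 32 in SD, where 5 were called without SD3, 8 without SD1, 13 without SD2 and 14 without SD11 or SD13. Scaling by UMI totals, chosen after seeing the data, brought the median difference of all genes in sorted classes from between -0.05 and 0.07 to between -0.40 and -0.23 and turned no called member's sign.

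Basal-like cells of sorted ACI rats had 8 of 29 members called, against 34.2% of genes, 5 lower and 3 higher. ITGB6 stood at 3.06, 2.72 and 3.05 UMIs per 10000 in 3 vehicle rats and 1.68, 1.86 and 1.53 in 3 TGFBRi rats, a log2 difference of -0.57 (DESeq2 SE 0.11, adjusted p = 0.0017). ITGA9 stood at 0.197, 0.171 and 0.161 against 0.0928, 0.0619 and 0.0743, a difference of -0.97 (DESeq2 SE 0.21, adjusted p = 0.0018). Vehicle and TGFBRi rats did not overlap for either gene. LAMB1 (-0.33), LAMA4 (-0.58) and ITGB3, at 0.008 to 0.0134 against 0 to 0.00243 over 51 UMIs in all, were lower too. ITGAE was higher, at 0.14, 0.118 and 0.118 against 0.167, 0.176 and 0.151, a difference of 0.61 (DESeq2 SE 0.18, adjusted p = 0.0048). LAMA5 (0.39) and ITGA5 (0.45) were higher by TMM, both with overlap. They lost the call with UMI-total scaling, under which 1 member was higher and 14 lower. The treatments lay in different clusters: 0 and 1, led by CXCL14 and HMOX1, held 28.5% and 41.9% of the TGFBRi cells of the class against 0.402% and 1.3% of the vehicle cells, and 4 and 5 held 34% and 45.3% of the vehicle cells.

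In ACI luminal progenitor-like cells 6 of 21 were called, against 28.2%, and 2 by DESeq2. LAMA4 was lower, at 0.38, 0.361 and 0.395 against 0.225, 0.224 and 0.19, a difference of -0.48 (DESeq2 SE 0.21, adjusted p = 0.019). ITGB8 (-0.45), ITGA6 (-0.34) and ITGB3 (-0.82) were lower, ITGA5 was higher over 28 UMIs (2.37), and ITGB4 was higher (0.39) but not with UMI-total scaling (1 higher and 9 lower). In ACI mature luminal-like cells 6 of 17 were called, against 25.6%. LAMC1 (-0.39), ITGA3 (-0.47), LAMB3 (-0.80, with overlap) and ITGB6 (-1.49, with overlap) were lower. ITGAE was higher (0.68), as was LAMA5 (0.50, with overlap), the latter not with UMI-total scaling (1 higher and 4 lower). Clusters 7 and 10 held 66.1% and 33.9% of vehicle and 36.1% and 63.9% of TGFBRi cells of that class.

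Basal-like cells of sorted SD rats had 15 of 30 members called, against 36.6% of genes, 12 lower and 3 higher. Most SD14 cells with basal levels of KRT5 lay in the unnamed cluster and were not counted in this class. ITGA1 stood at 1.07, 0.926 and 1.79 UMIs per 10000 in 3 vehicle rats and at 0.161 to 0.677 in 6 TGFBRi rats, a difference of -1.35 (DESeq2 SE 0.41, adjusted p = 0.021). ITGB6 stood at 2.05, 1.80 and 2.56 against 0.84 to 1.24, a difference of -0.69 (DESeq2 SE 0.18, adjusted p = 0.012). ITGA9 stood at 0.138, 0.065 and 0.276 against 0.00707 to 0.0495, a difference of -2.38 (DESeq2 SE 0.57, adjusted p = 0.0097). None of these overlapped. LAMA1 stood at 0.615, 0.478 and 1.53 against 0.153 to 0.576, with overlap, a difference of -0.96 (DESeq2 SE 0.44, adjusted p = 0.094) that was not called with coarser clusters (adjusted p = 0.106). LAMC1 (-0.82), ITGAV (-0.96), ITGB8 (-0.80), ITGA6 (-0.60), ITGB3 (-2.0), LAMA2 (-1.41, 35 UMIs) and ITGB1 (-0.48) were also lower. LAMA5 was higher, at 0.58, 0.604 and 0.517 against 0.772 to 1.09, a difference of 1.10 (DESeq2 SE 0.19, adjusted p = 0.0042). ITGAE (0.84) and ITGB4 (0.41) were higher but lost the call with UMI-total scaling (1 higher and 14 lower). Cluster 0, led by LGALS7 and KRT15, held 52.7% of TGFBRi and 0.948% of vehicle cells of the class, and cluster 1 25.5% and 80.3%.

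Sorted SD luminal progenitor-like cells had 4 of 23 called, against 31.4%, all lower. ITGA8 ran from 1.17 to 2.01 in vehicle and 0.40 to 0.999 in TGFBRi rats, a difference of -0.99 (DESeq2 SE 0.35, adjusted p = 0.049), and ITGB3 (-1.99), ITGA2 (-1.79) and LAMC1 (-0.68) joined it, with 10 lower under UMI-total scaling. Cluster 13, led by KIT, held 92% of vehicle and 3.61% of TGFBRi cells, and clusters 11, 12, 16 and 9 held 31%, 20.9%, 19.8% and 15.4% of TGFBRi cells, 9 and 16 mostly from 1 rat each (94.9% and 93.4%). Mature luminal-like cells had 3 of 20 called, against 30.4%: ITGAV (-0.79) and ITGA3 (-0.65) lower and ITGB8 higher (1.68), the last with overlap, with 1 higher and 4 lower under UMI-total scaling and 2 higher and 3 lower by DESeq2. Cluster 10 held 94.5% and 21.7%, cluster 8 5.51% and 78.3%. Of the hemidesmosome linkers, DST was lower in all 3 sorted SD classes (-1.14 to -1.73) and in all 3 sorted ACI classes (-0.36 to -0.57), and the kinase PTK2 was lower in the 3 SD classes (-1.01 to -1.21).

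Whole SD glands had 87 of 379 pairs called (23%), against 20.3%, and leaving out 1 rat gave 56 to 100, with 56 called without veh2. In basal-like cells 16 of 33 were called, against 44.3%, 12 higher and 4 lower. LAMA1 stood at 0.0789, 0.0843 and 0.179 UMIs per 10000 in vehicle and at 0.233 to 0.712 in 6 TGFBRi rats, higher by 2.02 (DESeq2 SE 0.37, adjusted p = 0.0022), where sorted SD cells had it lower. LAMB1 stood at 0.662, 0.71 and 0.981 against 1.20 to 1.44, higher by 0.80 (DESeq2 SE 0.13, adjusted p = 8.1e-04). No rat overlapped the other treatment for either gene. ITGAE (1.54), LAMB2 (0.90), LAMB3 (0.50), LAMA5 (0.46), ITGA6 (0.29), ITGB8 (0.78), ITGB3, ITGAX, ITGA2B and ITGA11 (the last 4 over 26 to 190 UMIs) were higher. ITGA3 was lower, at 1.83, 2.22 and 1.75 against 0.866 to 1.35, a difference of -0.76 (DESeq2 SE 0.15, adjusted p = 0.0017). ITGA2 (-1.32), ITGB4 (-0.43) and ITGB1 (-0.33) were lower too. Cluster 10 held 81.5% of TGFBRi and 8.88% of vehicle cells of the class, and cluster 9, led by KRT17, 15.2% and 83.4%. Of 17 adaptors 5 were higher, LIMS2 at 2.37 and TNS1 at 1.36, and 2 lower, and the ligand TNC was lower (-2.24). Besides LAMA1, also ITGA6, ITGB8 and ITGB3 were called higher in these cells but lower in sorted SD basal-like cells. ITGB4 was called lower here but higher in the sorted cells. The sorted treatments overlapped for it, at 0.95 to 1.08 in vehicle and 0.90 to 1.23 in TGFBRi rats, and that call was lost with UMI-total scaling. LAMA5 and ITGAE were called higher and ITGB1 lower in both. The treatment effect was not tested between sorted and whole-gland cells, whose libraries were made with different kits.

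ITGB6 was lower in both luminal classes of whole glands. In mature luminal-like cells it stood at 0.38, 0.394 and 0.94 in vehicle and at 0.0333 to 0.132 in TGFBRi rats, a difference of -2.98 (DESeq2 SE 0.39, adjusted p = 2.5e-04), and in luminal progenitor-like cells at 0.0512, 0.0825 and 0.102 against 0.00297 to 0.0125, a difference of -3.44 (DESeq2 SE 0.41, adjusted p = 3.4e-04) over 222 UMIs. Every TGFBRi rat lay below every vehicle rat in both classes. ITGB6 was highest in basal-like cells of these glands, and no basal marker was set beside it in the luminal classes. In sorted SD cells ITGB6 was not called in either class. It stood there at 0.0669, 0.0855 and 0.0235 against 0.0187 to 0.126 in mature luminal-like cells, with overlap and a difference of 0.38 (adjusted p = 0.61), and at 0.0494, 0.0392 and 0.0352 against 0.006 to 0.032 in luminal progenitor-like cells, a difference of -1.02 (adjusted p = 0.14). Mature luminal-like cells had 16 of 29 called, against 27.9%, 12 lower and 4 higher. The lower ones also held LAMA4 (-2.10), ITGAV (-1.09), ITGA6 (-0.74), ITGA3 (-0.74), LAMC1 (-0.52), and ITGA1, ITGA5, ITGA7, ITGB8 and LAMA5 (-0.62 to -2.22). In sorted SD mature luminal-like cells ITGB8 was called higher instead, while ITGAV and ITGA3 were lower there too. Among the other called members of whole-gland mature luminal-like cells 4 went up. ITGAE (1.52), ITGAL (1.94, 74 UMIs), ITGA10 (2.46, 13 UMIs) and ITGB3 (0 in all vehicle rats, 16 UMIs) were higher. Luminal progenitor-like cells had 9 of 29 called, against 26.8%, with LAMB3, ITGB3, ITGB1, LAMC1 and ITGAV also lower (-0.74 to -1.42) and LAMB1 (1.5) and ITGB4 (1.14) higher. With UMI-total scaling 4 members were lower and 3 higher, and LAMB3, ITGB3 and ITGAV were no longer called, nor was ITGA7 in mature luminal-like cells. Clusters 3 and 27 held 74.9% and 25.1% of vehicle and 56.4% and 43.6% of TGFBRi cells. In the partner lists 8 of 16 adaptors were lower in mature luminal-like cells, ILK at -1.04 and VCL at -1.16, together with NID1 (-1.53) and NID2 (-1.99).

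**Figure D4:**
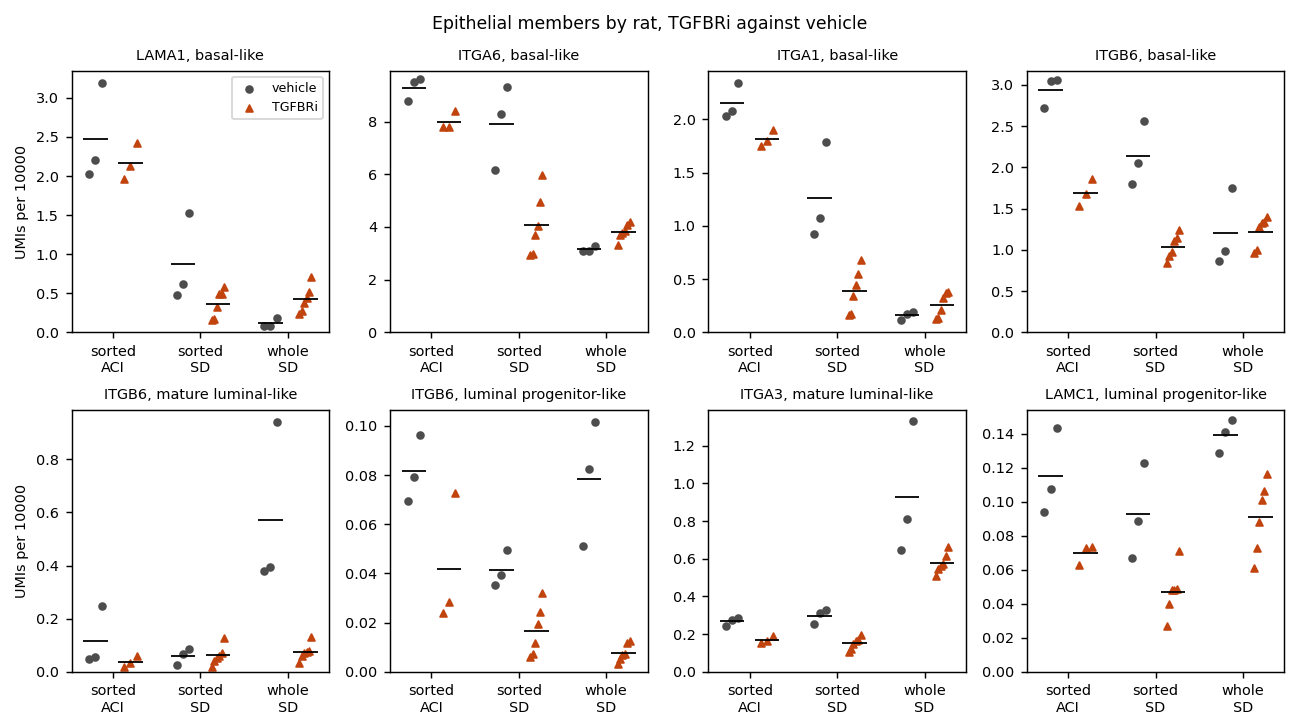
UMIs per 10000 of LAMA1, ITGA6, ITGA1 and ITGB6 in basal-like cells, ITGB6 in both luminal classes, ITGA3 in mature luminal-like cells and LAMC1 in luminal progenitor-like cells, by rat (1 point per rat) in sorted ACI, sorted SD and whole SD glands, with the mean of vehicle and of TGFBRi rats as a line. ITGB6 of mature luminal-like cells in whole glands lies lower in every TGFBRi rat, and LAMA1 of basal-like cells lies higher there.

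In the stroma ITGA6 and ITGB4 were higher in several vessel and nerve classes. Endothelium-like cells had 13 of 29 called, against 31.7%, 6 higher and 7 lower. ITGA6 ran from 0.878 to 1.01 in vehicle and 1.52 to 1.74 in TGFBRi rats, a difference of 0.57 (DESeq2 SE 0.11, adjusted p = 0.0029), and ITGB4 from 0.69 to 0.893 and 1.21 to 2.02, a difference of 0.86 (DESeq2 SE 0.19, adjusted p = 0.0039), both without overlap. ITGA9 (0.86), ITGA2B (1.43), LAMA5 (0.44) and ITGAX (1.79, 57 UMIs) were higher, and ITGAV (-1.17), LAMC1 (-0.58), ITGA1 (-0.47), ITGB1 (-0.40), ITGB3 (-1.58) and ITGA2 (-0.92) lower, of which ITGB1 and ITGA2 lost the call with UMI-total scaling (7 higher and 5 lower). The ligands ICAM2 (1.17) and MADCAM1 (1.19) and 5 of 16 adaptors were higher there. Lymphatic endothelium-like cells had 4 of 24 called, against 15.3%, all higher: ITGA6 (0.66), ITGB4 (0.94), ITGA9 (1.11) and ITGA2B (1.02). Schwann-like cells had 3 of 24 called, against 10.7%. ITGA6 stood there at 1.98, 1.84 and 1.86 against 2.39 to 4.58, a difference of 0.83 (DESeq2 SE 0.20, adjusted p = 0.012), with ITGB4 (0.62) and LAMB1 (0.59) also higher.

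Pericyte-like cells had 3 of 30 called, against 24.1%. ITGA6 ran from 0.502 to 0.596 in vehicle and 1.09 to 1.41 in TGFBRi rats, higher by 0.94 (DESeq2 SE 0.15, adjusted p = 6.8e-04), while ITGA5 (-1.33) and LAMC1 (-0.43) were lower, and with UMI-total scaling 4 were higher and 1 lower, LAMC1 not called. Coarser clusters gave 5 higher and 4 lower of 33, and leaving out the cells of highest doublet score 2 higher and 4 lower of 28, and both kept ITGA6, ITGA5 and LAMC1. Adaptors were higher for 6 of 16, and NPNT, the ITGA8 ligand, was lower (-1.78). Vascular smooth muscle-like cells had 2 of 23 called, against 15.9%, ITGA7 (0.58) and LAMA4 (0.60), both higher, and UMI-total scaling gave 5 higher. Without the cells of highest doublet score 1 was higher and 2 lower, with LAMA4 not called (adjusted p = 0.12) and ITGA5 lower (adjusted p = 0.0073), and coarser clusters held no class of this name. Fibroblast-like cells had 7 of 34 called, against 29.5%, with ITGA1 (-1.12), ITGA5 (-0.67), ITGB1 (-0.61), ITGAV (-0.47) and ITGA2 (-0.95) lower and ITGAE (0.57) higher. This split rested on the scaling, since UMI totals gave 6 higher and 5 lower and brought the median difference of all genes in these cells from 0.04 to 0.26. The ligands SPP1 (-1.99) and VCAM1 (-1.34) were lower in the same cells, as were FN1 (-1.56) and VCAM1 (-2.41) in Schwann-like cells.

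In lymphocytes of whole glands 4 leukocyte integrins (ITGA4, ITGB7, ITGAL and ITGAE) were called higher after TGFBRi in B cell-like cells and 3 (ITGAL, ITGB2 and ITGB7) in T cell-like cells. B cell-like cells had 6 of 26 called, against 17.3%. ITGA4 stood at 0.81, 0.83 and 0.66 UMIs per 10000 in vehicle and at 1.26 to 1.49 in TGFBRi rats, a difference of 0.78 (DESeq2 SE 0.09, adjusted p = 7.0e-04). Its partner ITGB7 stood at 0.09, 0.0999 and 0.0943 against 0.197 to 0.361, a difference of 1.55 (DESeq2 SE 0.21, adjusted p = 7.0e-04). All TGFBRi rats lay above all vehicle rats for both. ITGAL (0.53) and ITGAE (0.76) were higher and ITGB1 lower (-0.35), the last not with UMI-total scaling. T cell-like cells had 4 of 29 called, against 7.66%. ITGAL stood at 0.442, 0.60 and 0.405 against 0.794 to 1.09, a difference of 0.92 (DESeq2 SE 0.13, adjusted p = 0.0018), and ITGB2 at 0.685, 0.865 and 0.796 against 1.07 to 1.31, a difference of 0.66 (DESeq2 SE 0.12, adjusted p = 0.0067). Neither overlapped. ITGB7 was higher (0.84) and ITGA6 lower (-0.61), but with coarser clusters neither was called (adjusted p = 0.139 and 0.183), and ITGA6 was lost with UMI-total scaling.

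The pan-leukocyte gene PTPRC moved with these integrins, from 3.94 to 4.41 in vehicle and from 6.64 to 7.91 in TGFBRi rats in B cell-like cells, and from 5.89 to 8.43 and 8.67 to 9.88 in T cell-like cells. Median UMIs per B cell-like cell ran from 1609.5 to 2030 in vehicle and 2267.5 to 3246 in TGFBRi rats, and per T cell-like cell from 2070.0 to 2238 and 2663 to 3860.0. KRT14, which lymphocytes lack, ran from 0.0236 to 0.133 in vehicle and 0.0172 to 0.0386 in TGFBRi B cell-like cells. B cell-like cells lay in cluster 7 for 68.6% of vehicle and 42.2% of TGFBRi cells, and cluster 4 of the T cell-like cells, led by TNFRSF4 and FOXP3, held 16.4% and 25%. Their part in the integrin differences was not tested. Of the myeloid and NK classes, neutrophil-like cells had 1 of 24 called (ITGB7, 0.94), against 8.89%, macrophage-like cells 2 of 28 (ITGA5 0.64 and ITGB1 -0.59, the latter lost with UMI-total scaling), against 3.6%, and NK-like cells 1 of 17 (ITGAD, 1.18, in 1 of 9 fits without a rat), against 2.69%, and 0 by DESeq2 or without the cells of highest doublet score.

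**Figure D5:**
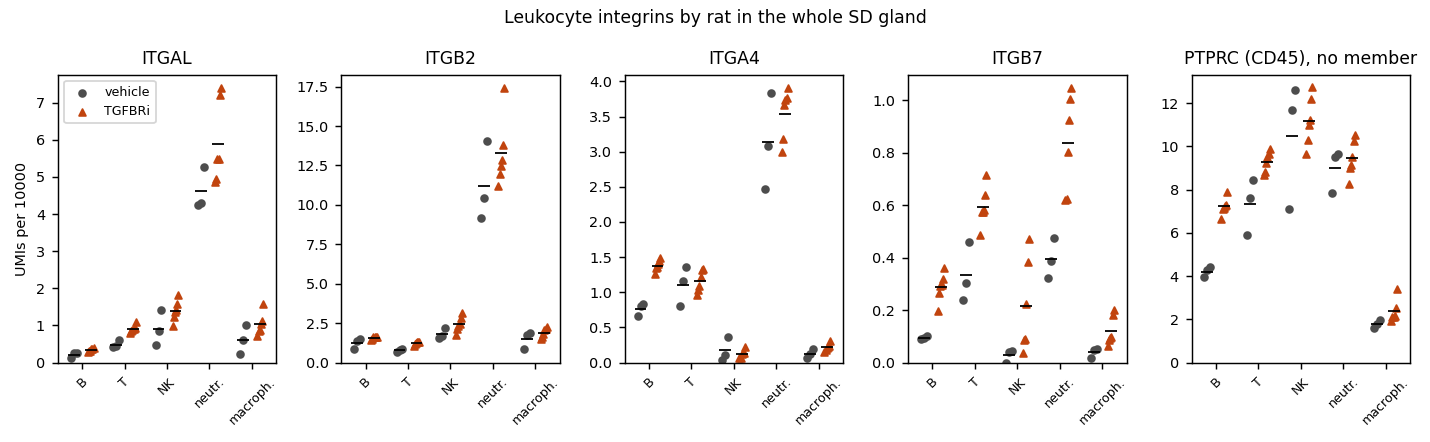
UMIs per 10000 of ITGAL, ITGB2, ITGA4, ITGB7 and PTPRC in 5 leukocyte classes of whole SD glands, 1 point per rat (3 vehicle and 6 TGFBRi), with the mean as a line. In B cell-like cells ITGA4, ITGB7 and PTPRC lie higher in every TGFBRi rat than in any vehicle rat.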

How the data were processed

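Bulk RNA-seq was measured in sorted basal, luminal, EPCAM+ and CD45+ cells of young virgin, adult, NMU and estradiol rats, and single-cell RNA-seq in sorted cells or whole glands of young virgin rats. The authors aligned bulk reads to rn6 with STAR 2.5.1b, counted RefSeq genes with HTSeq and deposited counts divided by DESeq2 1.30.1 size factors, so the deposited bulk values are a normalized signal, from which whole reads were recovered for 100% of values above 0 (tolerance 0.001). Rows naming no gene (23.1 to 42.5% of reads in 85 samples) were left out. For single cells the authors deposited raw UMI counts from Cell Ranger. The 16762 sorted ACI, 39766 sorted SD and 103524 whole-gland cells were those that passed the authors' filters. In sorted data these filters removed cells with any PTPRC read, cells with few keratin reads and cells taken as mis-sorted. Absence of leukocytes from sorted classes was thus set by the filter and is no finding. The authors reported higher keratin levels after TGFBRi in sorted SD cells. From the files, bulk values were fitted with limma 3.58.1 (trend, robust) on log2(value + 1), with gene sums of at least 10 and Benjamini-Hochberg adjusted p of at most 0.05, and edgeR 4.0.16 and DESeq2 1.42.0 on recovered reads were alternatives. A fold change on this scale understates that of low genes. Cells were clustered without the members with scanpy 1.11.5 (2000 variable genes, 30 components, 20 neighbours, Leiden resolution 0.8) and named from marker lists. Doublets were not removed, and an alternative left out the 6% of cells with the highest Scrublet scores. UMIs were summed per rat and class (at least 10 cells a rat and 10 UMIs a gene) and tested with edgeR's quasi-likelihood test, adjusted p of at most 0.1. Tests were two-sided. The 4 parts of rat A4-15 were counted as 1 rat. Basal and luminal samples of a rat deviated together with correlations of 0.03 to 0.83 in ACI and 0.09 to 0.17 in SD rats, and the pairing comes from the rat names in the labels. Members, marker and partner lists were chosen with earlier results of these data known. Named genes were all members called in a main comparison. The values of 1 member, which the counts include, are not reported here. The scripts were tested on simulated data. Promoters came from RefSeq on GRCr8.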

Additional observations from a re-analysis of the deposited data

Results flagged for a closer look

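Of 162 groups of 4 to 10 samples tested for a sample far from the others, 6 held one, and chance alone gives about 1 in 20. LAMB3 was 5710 normalized reads in basal cells of vehicle SD rat C7R, above the other 3 samples. LAMC3 was 67.35 in luminal cells of vehicle SD rat C6N, above the other 3. ITGA10 was 1.151 in basal cells of the adult virgin TGFBRi rat N1R, where the other 3 held 0. In whole glands after TGFBRi, ITGAV was 0.182 UMIs per 10000 in endothelium-like cells of rat ly1, above the other 5 rats, and 0.0908 in mature luminal-like cells of rat ly14, below the other 5. ITGAL was 0.0645 in mature luminal-like cells of rat ly1, above the other 5. The response of LAMC1 to TGFBRi in adult basal cells differed between virgin and parous rats by -1.55 (adjusted p = 0.0381 by limma).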

How the results depend on the processing

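Of 87 alternatives to the counts of called members, 63 stayed within 1.5 times the reported count, and of 2799 alternatives for 179 calls of a named gene in a comparison or class 2346 kept the call, 453 lost it and 0 changed direction. In young ACI basal cells on day 0 (1 member called), edgeR gave 0, DESeq2 4, a pseudocount of 5 4, a mean of at least 10 0 and the compared groups alone 4. In luminal cells (0 called) DESeq2 and the compared groups alone each gave 2. In CD45+ cells (7 called) edgeR gave 3, DESeq2 12 and the compared groups alone 0. In adult virgin basal cells (8 called) the compared groups alone gave 2 and the replicate block 0, where numbers in the labels did not pair the rats (correlations of -0.08 to 0.14). In NMU luminal cells (2 called) DESeq2 gave 6, a pseudocount of 5 1, no filter 1 and the compared groups alone 4. With estradiol, luminal cells (0 called) gave 1 by edgeR and 3 by DESeq2, and CD45+ cells (0 called) 5 by DESeq2 and 1 with the compared groups alone. Over the other contrasts (1 called) DESeq2 gave 13, edgeR 0 and a pseudocount of 5 0. In sorted ACI single cells (20 called) DESeq2 gave 13. The replicate block changed no other count by over 1.5 times, giving 16 for the ACI and 20 for the SD lineages. Alternatives with TMM in bulk and UMI totals in single cells were chosen after seeing the data. The causes were not tested.

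Leaving out 1 library gave 12 to 15 called members for the ACI lineages, 16 to 19 for SD, 0 to 5 for basal and 0 to 5 for luminal cells on day 0, 2 to 11 for CD45+ cells, 3 to 11 for adult virgin basal cells, 0 to 5 for NMU luminal cells, 0 to 1 and 0 to 2 for estradiol luminal and CD45+ cells, 0 to 6 over the other contrasts, 12 to 16 for sorted ACI, 5 to 32 for sorted SD and 56 to 100 for whole-gland single cells. Over all genes the bulk fits called 5032 to 5458 for the ACI and 5868 to 6682 for the SD lineages. On day 0 they called 70 to 2749 genes for basal, 0 to 2358 for luminal and 78 to 1043 for CD45+ cells. Adult virgin basal cells had 504 to 1712, NMU luminal cells 0 to 2017, and estradiol luminal and CD45+ cells 89 to 531 and 4 to 182. Of the members, basal cells on day 0 gave 5 without LD10R, 2 without LD20L and 0 without LD7L, LD7R, LD16L, LD9L, LD3L, LD3R, LD12R or LD2L, and luminal cells 5 without LD10R. CD45+ cells gave 2 without LD10R or LD3R, 3 without LD7R, 4 without LD9L, LD11L, LD11R, LD12R or LD2L and 11 without LD3L. Adult virgin basal cells gave 5 without vehicle N1R and 3 without vehicle N2N. NMU luminal cells gave 1 without D2N, 4 without D3R, 5 without C5R and 0 without D1N, D1R, D2R, C2N or C2R. Estradiol luminal cells gave 1 without A4-18 or A4-28, and CD45+ cells 1 without A4-4 and 2 without A4-8. The other contrasts gave 0 without each of 13 estradiol CD45+ libraries, 4 without A4-9, 3 without D2N, 2 without D1N or P1R and 6 without C5R. Sorted ACI cells gave 12 without ACI15 or ACI7, sorted SD cells 14 without SD11 or SD13, 8 without SD1, 13 without SD2 and 5 without SD3, and whole glands 56 without veh2.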
